A study of Mus musculus with 4 samples.

Results

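The 41 genes described here encode the proteins that license replication origins and copy DNA at the fork. They were taken by symbol from the deposited table, which has 27542 genes and transcribed loci. Each of the 41 had 1 row with a completed test, and all passed the minimum of 1 FPKM in either condition (FPKM counts sequenced fragments per transcript length and library size). The cells were TBV2, a mouse embryonic stem (ES) cell line, grown in serum with LIF, with feeder cells and high density added by the series description. In KD cells the transcript T-UCstem1, an ultraconserved long noncoding RNA, had been knocked down, and 3 clones of them were sequenced. NT cells, the control labelled N.T., were 1 library. Neither the agent of the knockdown nor the origin of the control line is given in the sources used here, and the level of T-UCstem1 was not analysed here. The deposited table has 1 value per gene for a treated and 1 for a control condition. The treated value was taken as the 3 clones combined, as the sample titles imply, although nothing in the table says how many libraries it holds. No spread between cultures accompanies any value, and a difference has no replicate check. The p and q given below are those of the authors' deposited table, and with 1 control library they contain no measured spread between control cultures.

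Origins are licensed in G1, when the origin recognition complex, CDC6 and CDT1 load the MCM2-7 ring onto DNA, and geminin then blocks further loading. In S phase CDC45 and the GINS complex turn the ring into an active helicase. Primase and DNA polymerase alpha start each strand, the sliding clamp PCNA holds the other polymerases, and ribonucleotide reductase and thymidylate synthase supply building blocks. Mouse ES cells have a short G1 and spend much of their cycle in S phase, and many of these genes are textbook targets of the E2F transcription factors. The study's title names proliferation and self-renewal as its subject, so the comparison asks whether the replication machinery is transcribed at another level when T-UCstem1 is lowered.

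All parts of the machinery were transcribed in both conditions, at levels that differed little. None of the 41 genes carried the authors' mark for a changed gene (q under their threshold), against 1.15% of all tested rows (0.963% higher and 0.187% lower in KD). At an unadjusted p under 0.05 there were 2, Pold1 and Mcm6, both lower in KD cells. At the same p stood 8.88% of all tested rows, 6.10% higher and 2.78% lower in KD. The median log2 fold, log2((KD FPKM + 1)/(NT FPKM + 1)), was -0.080 over the 41 genes and 0.022 over the 12582 expressed gene symbols. Of the 41, 28 lay below 0 and 13 above (32 below after centring on the median of all expressed genes), where as deposited 46.8% of expressed symbols and 48.2% of the 6901 symbols with a mean of at least 10 FPKM lay below 0. Summed over the genes, the level was 2599 FPKM in KD cells and 2789 FPKM in NT cells, a KD to NT ratio of 0.932. The same ratio was 0.990 over all expressed symbols and 0.987 over those at 10 FPKM or more.

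The spread of the differences was narrow. Of the 41 genes, 24 stood within 10% of their NT level and 36 within 20%, where 43.9% and 71.5% of the symbols at 10 FPKM or more did. No gene reached a log2 fold of 0.5 and 1, Pold1, was at -0.5 or lower, beside 4.87% and 4.91% of the symbols at 10 FPKM or more, or 9.60% and 5.38% of all expressed symbols. The highest log2 fold, that of Rfc3, was 0.19. The order of the genes by level was nearly the same in both conditions. Across genes, which are not independent replicates, log2 FPKM in KD and NT had a Pearson r of 0.985 over 41 genes, and 38 genes kept their rank within 3 places. The largest shift was that of Pold1, which was in place 34 in KD cells and place 26 in NT cells.

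The authors' test marked only large changes at these levels. In the range of mean FPKM that the 41 genes span, from 12.2 to 220 FPKM, 73 of 5653 tested rows were marked, and none of them had a log2 fold between -0.83 and 0.83. Among the 304 rows with an absolute log2 fold of 0.5 to 0.7, which includes Pold1, none was marked. All 41 genes had smaller differences than any marked row in this range, so the absence of calls does not show that KD and NT cells had equal levels.

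**Figure D1:**
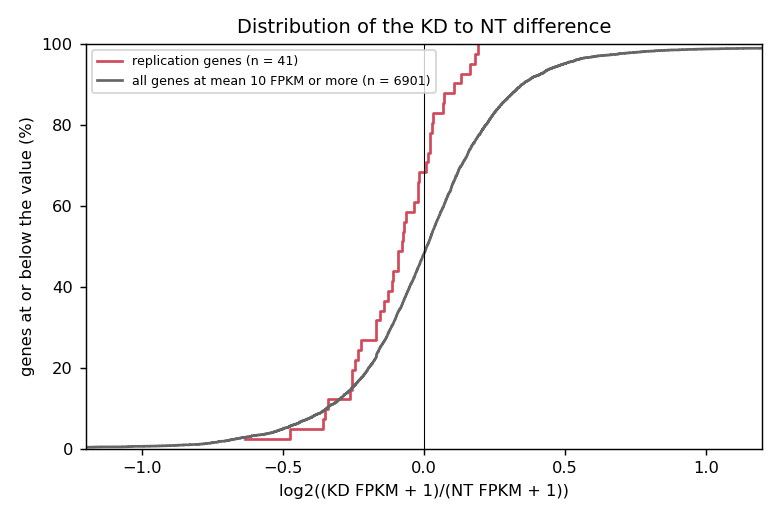
Cumulative percentage of genes (y axis) at or below each log2((KD FPKM + 1)/(NT FPKM + 1)) (x axis) for the 41 replication genes and for 6901 gene symbols with a mean of at least 10 FPKM. The curve of the replication genes ends at 0.19 and crosses 0 with 28 of 41 genes to its left.

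The promoters of Pold1 and Mcm6, the genes that differed most from NT, are shown with those of Mcm5 and Orc1, which hold E2F words and were within 3% of NT, because the E2F sites of such genes are the classic link between the cell cycle and replication gene expression. RefSeq's table (GRCm38.p6) gave windows for 33 of the 41 genes, and the 250 bases before each gene start were searched on both strands for the E2F words TTTCCCGC, TTTCGCGC, TTTGCCGC and TTTGGCGC. Mcm6 held 3 words, of which 2 overlap on opposite strands, and Mcm5 held 2 overlapping words. Orc1 held 1, while Pold1 and Pcna held none there. Capitals mark the words, each line runs 5′ to 3′ on the gene's strand and ends at the base before the RefSeq start. Bases just after each start were looked for in the gene's GENCODE transcripts and were found for 33 of the members' 40 windows. They were found for Orc1 and Pold1 but not for the Mcm6 and Mcm5 windows, whose starts thus lack that check. The windows are Mcm6 at chr1:128359706-128359955, minus strand; Mcm5 at chr8:75109259-75109508, plus strand; Orc1 at chr4:108579204-108579453, plus strand; and Pold1 at chr7:44548816-44549065, minus strand.
Mcm6: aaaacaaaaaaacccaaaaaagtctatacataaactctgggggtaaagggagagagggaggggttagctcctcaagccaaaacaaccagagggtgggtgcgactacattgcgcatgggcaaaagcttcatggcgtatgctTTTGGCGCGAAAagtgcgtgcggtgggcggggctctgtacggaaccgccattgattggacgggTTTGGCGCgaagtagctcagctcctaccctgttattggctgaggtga
Mcm5: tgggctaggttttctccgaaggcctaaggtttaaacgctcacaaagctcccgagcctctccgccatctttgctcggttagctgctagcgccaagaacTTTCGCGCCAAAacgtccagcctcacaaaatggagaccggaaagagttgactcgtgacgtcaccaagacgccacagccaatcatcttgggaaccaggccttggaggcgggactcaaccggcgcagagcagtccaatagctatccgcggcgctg
Orc1: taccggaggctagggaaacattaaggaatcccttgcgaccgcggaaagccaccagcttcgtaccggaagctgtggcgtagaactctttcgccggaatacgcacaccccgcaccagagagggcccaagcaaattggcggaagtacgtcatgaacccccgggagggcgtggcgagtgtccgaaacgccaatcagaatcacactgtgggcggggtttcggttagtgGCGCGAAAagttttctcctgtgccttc
Pold1: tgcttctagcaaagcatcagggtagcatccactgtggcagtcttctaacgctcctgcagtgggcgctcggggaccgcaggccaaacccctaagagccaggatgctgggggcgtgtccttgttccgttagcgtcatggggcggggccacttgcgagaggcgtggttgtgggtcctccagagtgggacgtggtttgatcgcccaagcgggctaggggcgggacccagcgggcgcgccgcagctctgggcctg

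An E2F word was found upstream of 9 of the 33 genes, against 1.86% of all 32851 promoter windows and 4.04% of 9411 expressed genes with a window. The 9 were Cdc6, Gins3, Mcm5, Mcm6, Mcm7, Orc1, Orc3, Pola1 and Rfc3. When the 50 bases after the start were added, Cdt1, Lig1, Mcm3 and Pold1 joined them. That made 13 of 33, against 2.26% of all windows and 4.87% of the expressed genes with a window. Genes with the word upstream had log2 folds between -0.47 (Mcm6) and 0.19 (Rfc3) with a median of -0.11, and 7 of the 9 lay below 0. The 24 genes without it ran between -0.63 and 0.18 with a median of -0.076, and 15 of them lay below 0. Over all expressed genes the medians were 0.00018 for the 380 with the word and 0.024 for the rest. The CCAAT box was present upstream of 22 of the 33 genes, against 33.8% of all windows and 40.7% of the expressed genes with a window, and those 22 had a median of -0.047 where the 11 without it had -0.16. A match is a string of letters, not a bound site.

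The MCM2-7 genes encode the ring that unwinds DNA, and they were among the most abundant of the set. Mcm7 was at 190 FPKM in KD and 203 FPKM in NT cells, Mcm3 at 172 FPKM in KD and 188 FPKM in NT cells, and Mcm2 at 165 FPKM in KD and 157 FPKM in NT cells. Mcm5 stood at 121 FPKM in KD and 123 FPKM in NT cells, and Mcm4, the lowest of the ring genes per length, at 88.5 FPKM in KD and 88.0 FPKM in NT cells. These 5 subunits thus differed by less than 9% each. Mcm6 (chromosome 1, 130228168 to 130256233, mm9) was the exception, at 139 FPKM in KD and 194 FPKM in NT cells, a log2 fold of -0.47 with p = 0.0344 and q = 0.470 in the authors' deposited table. Its share of the summed MCM2-7 level was 15.9% in KD and 20.3% in NT cells, and the other subunits' shares moved by less. The ring genes together came to 875 FPKM in KD and 952 FPKM in NT cells. Mcm2 lies on chromosome 6, whose 578 expressed genes had a median log2 fold of 0.26. Mcm2 was at 0.069, which is -0.19 relative to its chromosome's median.

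The origin recognition complex marks origins by binding DNA. Its large subunit Orc1 was at 38.3 FPKM in KD and 37.5 FPKM in NT cells. Orc6 was as close, at 57.6 FPKM in KD and 57.0 FPKM in NT cells. Orc2, a core subunit of the complex, was the lowest relative to NT, at 51.4 FPKM in KD and 65.3 FPKM in NT cells (p = 0.130 in the authors' deposited table). Orc5 stood at 46.2 FPKM in KD and 51.0 FPKM in NT cells, and Orc3 at 13.7 FPKM in KD and 15.5 FPKM in NT cells. Orc4 was higher in KD, at 18.1 FPKM against 15.8 FPKM in NT cells (p = 0.571 in the authors' deposited table). As deposited, 3 subunits were higher and 3 lower, with a median log2 fold of -0.064.

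The loading factors Cdt1 and Cdc6 and the inhibitor gene Gmnn were all lower in KD cells. For Cdc6 and Gmnn the difference was small, 8.0% and 4.9%, with p of 0.653 and 0.792 in the authors' deposited table. Cdt1, which brings the MCM ring to the origin complex, had the larger difference, at 52.3 FPKM in KD and 67.4 FPKM in NT cells (log2 fold -0.36, p = 0.139 in the authors' deposited table). Cdc6, the ATPase that works with it, was at 13.3 FPKM in KD and 14.5 FPKM in NT cells. Gmnn, which encodes the CDT1 inhibitor geminin, was at 65.9 FPKM in KD and 69.3 FPKM in NT cells. The ratio of Cdt1 to Gmnn, both per length, was thus 0.793 in KD and 0.972 in NT cells.

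Genes that activate the loaded helicase showed no common shift. Cdc45 stood at 33.6 FPKM in KD and 32.9 FPKM in NT cells. Of the GINS subunits, which tie CDC45 to the ring, Gins1 was at 31.0 FPKM in KD and 28.2 FPKM in NT cells and Gins4 at 35.9 FPKM in KD and 36.4 FPKM in NT cells. Gins2 was at 42.6 FPKM in KD and 46.1 FPKM in NT cells, and its deposited locus also spans the row of Gse1. Such overlaps with other rows, whose reads may not be cleanly split, were found for 11 of the 41 loci, those of Mcm7, Orc3, Orc4, Orc5, Gins2, Rfc4, Rfc5, Pole, Pold1, Fen1 and Lig1. Gins3, the least abundant of the 41 genes in either condition, was at 10.6 FPKM in KD and 13.8 FPKM in NT cells (log2 fold -0.35, p = 0.256 in the authors' deposited table). Mcm10, a firing factor outside the ring despite its name, was at 39.8 FPKM in KD and 47.6 FPKM in NT cells. As deposited, 4 of these 6 genes were lower and 2 higher, with a median of -0.066.

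**Figure D2:**
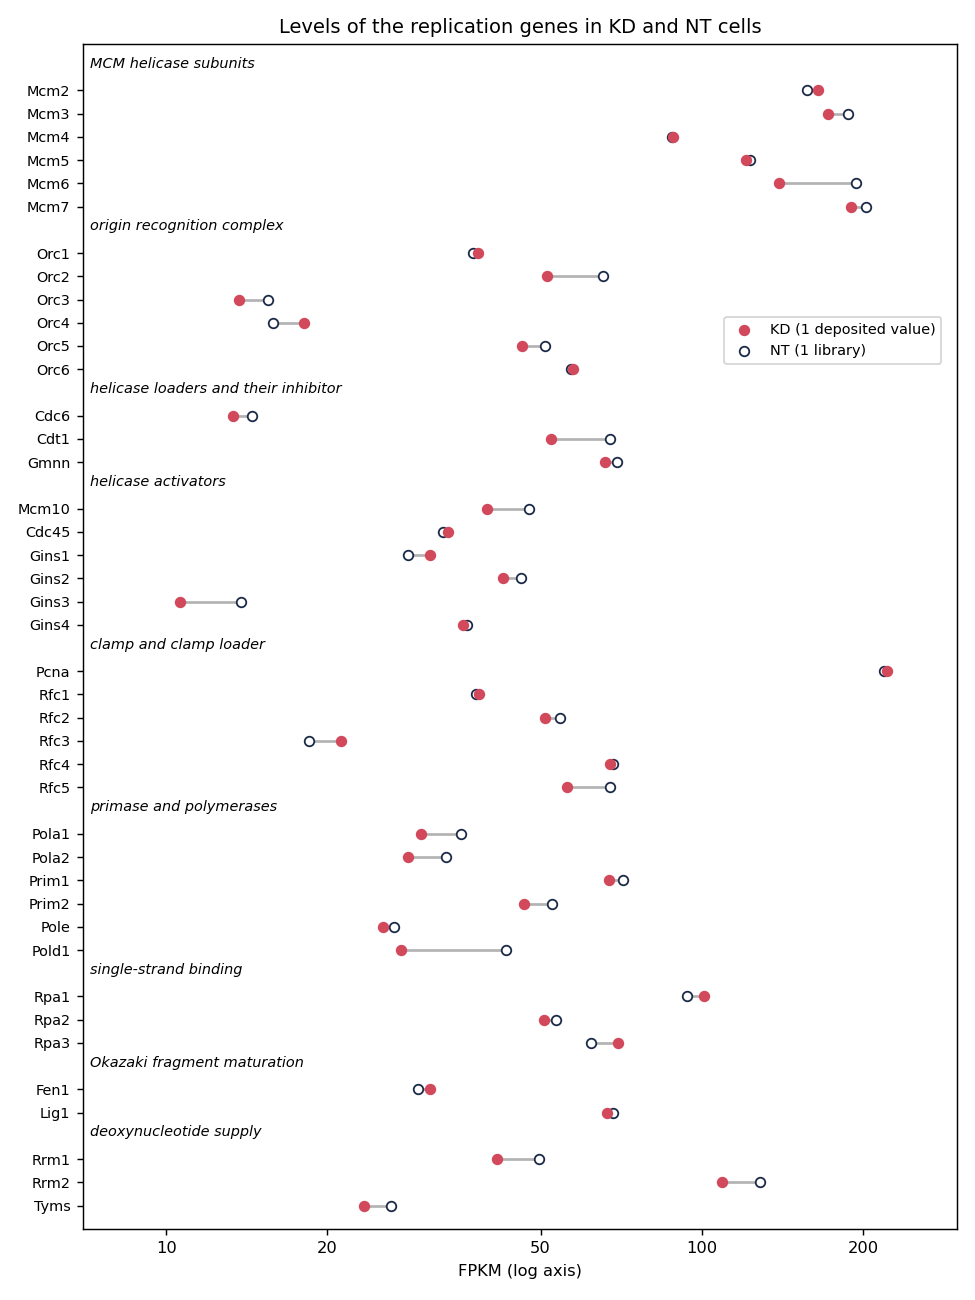
FPKM on a log axis for each of the 41 genes, grouped by role, with the KD value filled and the NT value open. The widest gaps are those of Pold1, Mcm6, Cdt1, Gins3 and Orc2, each lower in KD, and Pcna is highest in both conditions, at 222 FPKM in KD and 219 FPKM in NT cells.

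The sliding clamp and its loader were close to their NT levels. Pcna, the clamp, was the most abundant of the 41 genes, at 222 FPKM in KD and 219 FPKM in NT cells. The RFC complex opens the clamp and sets it on DNA. Its large subunit Rfc1 was at 38.4 FPKM in KD and 37.8 FPKM in NT cells, Rfc4 at 67.3 FPKM in KD and 68.1 FPKM in NT cells, and Rfc2 at 51.0 FPKM in KD and 54.4 FPKM in NT cells. Rfc5 was lower, at 55.9 FPKM in KD and 67.3 FPKM in NT cells, while Rfc3 was higher, at 21.2 FPKM in KD and 18.4 FPKM in NT cells, with p of 0.408 and 0.572 in the authors' deposited table. The group's median was 0.0017 as deposited, -0.021 after centring on all expressed genes and -0.057 after centring on each gene's chromosome.

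All 6 listed genes of primase and the replicative polymerases were lower in KD cells as deposited, with a median log2 fold of -0.20. Prim1 was at 0.080 once centred on its chromosome. Further polymerase subunits, such as Pole3, are not among the 6 and are counted with the other fork factors below. Pold1 (chromosome 7, 51788114 to 51804185, mm9), the catalytic subunit of polymerase delta, which copies the lagging strand, had the largest difference of the 41 genes. It was at 27.4 FPKM in KD and 43.1 FPKM in NT cells, 36.3% lower, with p = 0.00880 and q = 0.236 in the authors' deposited table. Pole, the catalytic subunit of the leading-strand polymerase epsilon, was at 25.4 FPKM in KD and 26.6 FPKM in NT cells, so that the ratio of Pold1 to Pole was 1.08 in KD and 1.62 in NT cells. Pola1 and Pola2 encode the catalytic and accessory subunits of polymerase alpha. Pola1 was at 29.9 FPKM in KD and 35.5 FPKM in NT cells, and Pola2 at 28.3 FPKM in KD and 33.2 FPKM in NT cells. Prim1, the catalytic primase subunit, was at 67.2 FPKM in KD and 71.1 FPKM in NT cells, and its partner Prim2 at 46.6 FPKM in KD and 52.6 FPKM in NT cells. Prim1 lies on chromosome 10, whose 602 expressed genes had a median of -0.16.

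Single-strand binding genes had a median of 0.11 as deposited and of -0.097 after centring each gene on its chromosome's median, so the sign depends on that scaling. RPA coats the unwound strands, and its large subunit Rpa1 was at 101 FPKM in KD and 93.8 FPKM in NT cells. Rpa3 was at 69.7 FPKM in KD and 62.0 FPKM in NT cells and lies on chromosome 6, against whose median it stood at -0.097. Rpa2 was at 50.8 FPKM in KD and 53.5 FPKM in NT cells.

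Okazaki fragments are trimmed by the flap nuclease FEN1 and joined by DNA ligase I. Fen1 was at 31.0 FPKM in KD and 29.6 FPKM in NT cells, and Lig1 at 66.5 FPKM in KD and 68.2 FPKM in NT cells. The row of Lig1 also carries the symbol Pla2g4c, so its value is that of a merged locus.

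Genes of deoxynucleotide supply were lower in KD cells by similar steps. Rrm2, the ribonucleotide reductase subunit whose amount follows S phase, was at 109 FPKM in KD and 128 FPKM in NT cells. Rrm1, the large subunit, was at 41.4 FPKM in KD and 49.6 FPKM in NT cells, and Tyms, thymidylate synthase, at 23.5 FPKM in KD and 26.3 FPKM in NT cells. Their log2 folds were -0.23, -0.26 and -0.16, with p between 0.258 and 0.534 in the authors' deposited table. The ratio of Rrm2 to Rrm1 was 2.63 in KD and 2.59 in NT cells.

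**Figure D3:**
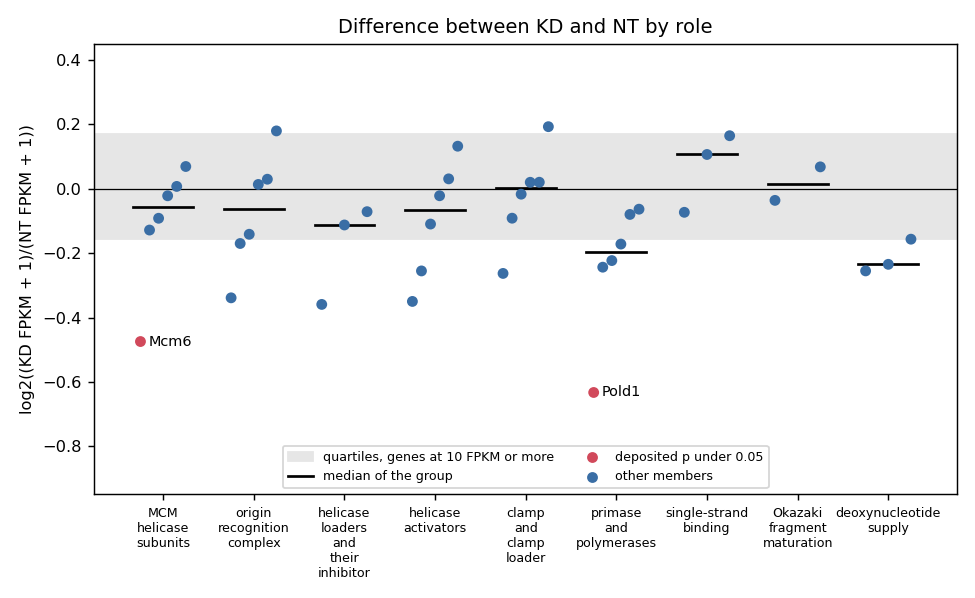
Log2((KD FPKM + 1)/(NT FPKM + 1)) of each gene (points) by role, with the group median as a bar and the quartiles of symbols with a mean of at least 10 FPKM as a grey band. Pold1 and Mcm6, the 2 genes with a deposited p under 0.05, lie lowest, and all genes of the polymerase, loader and deoxynucleotide groups lie below 0 as deposited (Prim1 is at 0.080 once centred on its chromosome).

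Other genes of the pathway, taken as lists, showed no call either. For these lists, as for the members, the shares to set beside are 1.15% of tested rows marked and 46.8% of expressed symbols below 0. With so low a share marked, lists this short could hold no mark without differing from other genes. None of 34 further firing and fork factors was marked, and 22 of them lay below 0, with a median log2 fold of -0.12. Top2a, the topoisomerase that untangles replicated DNA, was at 216 FPKM in KD and 217 FPKM in NT cells. Supt16, a subunit of the histone chaperone FACT, was at 145 FPKM in KD and 133 FPKM in NT cells, on a row shared with Chd8. Pole3, a histone-fold subunit of polymerase epsilon, was the 1 factor at an unadjusted p under 0.05, at 45.3 FPKM in KD and 26.0 FPKM in NT cells (q = 0.409 in the authors' deposited table), but its row is shared with Alad.

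Of 26 E2F, Rb and S-phase kinase regulators none was marked, and the median was -0.063. Mybl2, a cell-cycle transcription factor and the most abundant of them, was at 312 FPKM in KD and 286 FPKM in NT cells. Ccna2, the S-phase cyclin A2, was at 101 FPKM in KD and 113 FPKM in NT cells. Fzr1, which encodes the anaphase-promoting complex activator CDH1, was at 48.7 FPKM in KD and 81.8 FPKM in NT cells (q = 0.134 in the authors' deposited table), on chromosome 10.

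The 13 checkpoint genes had a median of -0.14, with 10 below 0 and none marked. Ticrr, Clspn and Topbp1 are counted both here and among the further firing and fork factors. Topbp1, an activator of ATR, was at 40.6 FPKM in KD and 45.2 FPKM in NT cells, and Rad9a, a subunit of the checkpoint clamp, at 30.6 FPKM in KD and 40.2 FPKM in NT cells. Chek1, the checkpoint kinase of S phase, was at 26.4 FPKM in KD and 38.0 FPKM in NT cells (p = 0.0400 in the authors' deposited table).

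The 18 other nucleotide synthesis genes had a median of -0.11 and no mark. Paics, an enzyme of purine synthesis, was at 193 FPKM in KD and 282 FPKM in NT cells (p = 0.0421 in the authors' deposited table), and Shmt2, which feeds one-carbon units, at 211 FPKM in KD and 264 FPKM in NT cells. Shmt2 lies on chromosome 10, whose expressed genes had a median log2 fold of -0.16. Among 9 genes of replication-coupled chromatin 6 lay above 0 and none was marked, with a median of 0.12. Nasp, a histone chaperone, was at 285 FPKM in KD and 260 FPKM in NT cells, Hells, a chromatin remodeller, at 140 FPKM in KD and 129 FPKM in NT cells, and Uhrf1, which brings DNMT1 to hemimethylated DNA, at 91.1 FPKM in KD and 126 FPKM in NT cells.

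The 16 mitotic genes had a median of -0.11, with 12 below 0 and none marked. Ube2c, a ubiquitin-conjugating enzyme of mitosis, was at 246 FPKM in KD and 194 FPKM in NT cells, and Ccnb1, cyclin B1, at 190 FPKM in KD and 223 FPKM in NT cells. Cdk1, the mitotic kinase and a chromosome 10 gene, was at 86.1 FPKM in KD and 140 FPKM in NT cells (q = 0.106 in the authors' deposited table). In bulk RNA, fewer cells in S phase and less of a transcript per cell cannot be told apart.

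**Figure D4:**
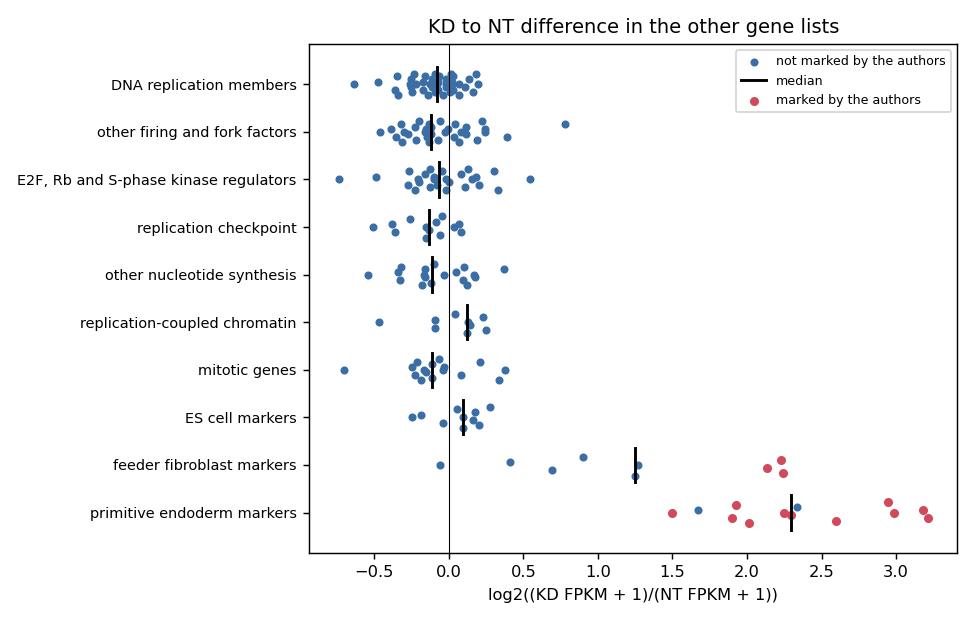
Log2((KD FPKM + 1)/(NT FPKM + 1)) (x axis) of each member at 1 FPKM or more in the replication genes and 9 other lists (rows), with list medians as bars and genes marked by the authors in red. No gene of the cell-cycle lists is marked, whereas 11 primitive endoderm and 3 feeder fibroblast markers are.

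The identity of the cells was checked on marker lists. None of 10 ES cell markers was marked, and their summed level was 6324 FPKM in KD and 6044 FPKM in NT cells, with Dppa5a at 2721 FPKM in KD and 2552 FPKM in NT cells (a row shared with Ooep) and Pou5f1, which encodes OCT4, at 1078 FPKM in KD and 1036 FPKM in NT cells. Primitive endoderm markers were higher, with 11 of 13 tested marked by the authors. Their summed level was 474 FPKM in KD and 63.1 FPKM in NT cells, and single markers ran between 0.0522 and 109 FPKM in KD and between 0 and 19.9 FPKM in NT cells, with Afp and Ttr listed at 0 in NT. The basement membrane genes Col4a1, Col4a2 and Lamb1 and the endocytic receptor Cubn had the largest marked log2 folds, between 2.95 and 3.21, and the unmarked Amn and Foxa2 were at 2.34 and 1.67. Of 10 tested feeder fibroblast markers 3 were marked, Tnc, Bgn and Fbln2, with log2 folds between 2.13 and 2.24. Of the unmarked ones, Col1a1, Col1a2, Twist1 and Fbn1 had an unadjusted p under 0.05 and log2 folds of 1.27, 1.25, 0.90 and 0.69, while Thy1 and Pdgfrb were at 0.41 and -0.060. In all, 7 of the 10 tested were higher in KD at that p and none was lower. Of those 7, Fbln2 and Col1a2 lie on chromosome 6, whose expressed genes had a median log2 fold of 0.26. The list's summed level was 67.7 FPKM in KD and 19.5 FPKM in NT cells. Single fibroblast markers ran between 0 and 16.3 FPKM in KD and between 0 and 5.08 FPKM in NT cells, with Lum listed at 0 in both and Fap listed at 0 in NT. Bulk values do not show which cells carried these transcripts. What part, if any, fibroblasts or primitive endoderm cells had in the replication genes' small differences was not tested.

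The genes below 0 lay on several chromosomes. All 4 genes on chromosome 1 and all 3 on chromosome 7 were lower in KD cells, where the medians of all expressed genes were 0.0081 and -0.0066. On chromosome 5, 6 of 8 genes lay below 0, and on chromosome 8, 5 of 6, where the same medians were -0.016 and 0.00043. On chromosome 2, 1 of 4 lay below 0, and on chromosome 16, 1 of 3, where those medians were 0.070 and 0.047. On chromosome 6, 0 of 2 lay below 0. Chromosome Y held none of the members, and its 3 expressed genes had a median log2 fold of 3.51. What this gap on chromosome Y means for the comparison of KD with NT cells was not tested. Without the 3 genes on chromosomes 6 and 10, whose expressed genes had medians of 0.26 and -0.16, 27 of 38 lay below 0 with a median of -0.091.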

How the data were processed

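RNA of 1 NT library and 3 KD clones of mouse TBV2 cells was sequenced. The authors used TopHat, Cufflinks and Cuffdiff on mm9, per the submitters' processing notes. Tool versions, annotation, scaling and use of strand are not stated there. Each gene has 1 deposited FPKM for "treated" and 1 for "control", per the file headers. Treated was read as the 3 clones pooled and control as the NT library, an inference from the sample titles. The deposited p-value and q-value are Cuffdiff's, per the file headers. The q was recovered by Benjamini-Hochberg adjustment over 15477 tested rows to within 5.2e-07, and the largest q of a marked gene was 0.0478.

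Log2 folds were recomputed from FPKM with a pseudocount of 1, which understates changes of low genes. No test was run on the FPKM. Per symbol the row with the higher mean was kept. Locus starts were raised by 1, as Cuffdiff counts from 0. Depth per library is not stated. In NT, 0.033 was the most frequent low FPKM times length in kb, found for 15 of 182 genes in the low range. It may be the worth of 1 fragment.

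Members and lists were chosen with earlier results of these data known. All 41 members were named. Of each other list, up to 4 marked genes and the 2 most abundant unmarked ones were to be named. Genes at an unadjusted p under 0.05 were added after their values were seen. Alternatives were other pseudocounts, minimums, row choices and centrings. Promoters are RefSeq's (GRCm38.p6). Code was tested on simulated data. Python 3.11.15, pandas 2.3.3 and numpy 2.4.6 were used.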

Additional observations from a re-analysis of the deposited data

How the results depend on the processing

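No paired analysis was possible because the table has 1 KD value and 1 NT value per gene, and for the same reason no library could be left out. The number of genes marked by the authors was 0 of 41 with q under 0.1 as well as with q recomputed. The recomputed q could not give another count, since it repeats the deposited q to within 5.2e-07. The smallest deposited q of the 41 was 0.236. The number of genes below 0 was between 27 and 32 and the median log2 fold between -0.10 and -0.075 under other pseudocounts (0.1 and 5), FPKM minimums (none and 10), only rows with 1 symbol, both centrings and without chromosomes 6, 10 and Y. Of these settings, the pseudocounts could not change a sign. The FPKM minimums dropped none of the 41 genes, all above 10 FPKM in both conditions, and leaving out chromosome Y removed none. Those settings were thus no test of the number below 0. Centring by chromosome was chosen after seeing the data. At a log2 fold of 0.3 in place of 0.5, 5 genes were lower and 0 higher. The other 36 of 41 (87.8%) lay within 0.3 of 0, where 74.7% of the symbols at 10 FPKM or more did. At an unadjusted p under 0.01, 1 gene remained of the 2 (Pold1). Of 63 role medians under alternatives 3 moved beyond 0.05: Okazaki maturation to 0.068 with only rows of 1 symbol, and, centred by chromosome, the clamp group to -0.057 and single-strand binding to -0.097.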
